A study of Homo sapiens with 6 samples.

Results

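This account covers 49 genes of mitotic entry, the kinetochore and the spindle assembly checkpoint in TPC-1 cells, an established human papillary thyroid carcinoma line, after knockdown of SHCBP1. The genes were chosen by name, and each was represented by the mean of the probe sets whose platform annotation gives that symbol alone. By that rule 48 of the 49 genes could be tested, out of 18132 genes on the arrays. PTTG1 has no probe set of its own. The 48 genes rest on 116 probe sets, with 1 probe set for 18 genes and several for 30.

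SHCBP1 binds the adaptor SHC1 and takes part in cytokinesis. The 6 samples are 3 from cells given lentivirus that carried an shRNA against SHCBP1 and 3 from cells given lentivirus that carried a control shRNA, each on 1 Affymetrix array. All were grown in RPMI1640 with fetal bovine serum, and no other allele or agent is named. The extraction text of the labels names DLD1, a colorectal carcinoma line, in place of TPC-1. With 1 named hairpin against the target and no rescue, effects of losing SHCBP1 and of the hairpin itself cannot be told apart. Nothing says that the samples came from separate cultures, so the p-values cover a spread that may be technical only.

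The deposited values are log2 values with a median of 0 over the 6 arrays for each probe set, and they carry no expression level. Thyroid and intestinal markers could therefore not be checked for presence. In SHCBP1 shRNA relative to control shRNA arrays, 1 of 5 tested thyroid markers and 2 of 6 intestinal markers were higher and 0 of either list was lower, where 22.0% of all genes were higher and 19.0% lower by the test below. A value below is the centred log2 value of 1 array, and a difference is the SHCBP1 shRNA mean minus the control shRNA mean on the log2 scale. Errors of differences are limma's moderated standard errors with n = 3 arrays per group. A gene rose or fell where limma's moderated test gave a Benjamini-Hochberg adjusted p under 0.05 over all 18132 genes.

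SHCBP1 had values of -0.95, -0.76 and -0.72 in the SHCBP1 shRNA arrays, against 0.72, 0.76 and 0.71 in the control shRNA arrays. The groups lay far apart, and the difference was -1.54 ± 0.06 (SE). In the SHCBP1 shRNA arrays the poly-A spike-in transcripts exceeded their control shRNA level by 0.43 ± 0.04 (SE), and 28S ribosomal RNA did so by 2.80 ± 0.03 (SE) at its 5′ probe set. The 3′ to 5′ ratio, a sign of RNA quality, moved by -0.077 ± 0.018 (SE) for ACTB and -0.006 ± 0.016 (SE) for GAPDH. Scaling to the spike-ins would lower every difference by 0.43. A rise below is thus a rise against the bulk of array genes, and 3 of the 12 rises were larger than that shift. The part of these control values in the results was not tested.

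Entry into mitosis is driven by CDK1 with cyclins A and B, held back by the kinases WEE1 and PKMYT1 and released by CDC25 phosphatases. Kinetochores, built on CENP-A chromatin, bind the spindle through the NDC80 complex, and unattached kinetochores assemble MAD2, BUBR1 and BUB3 with CDC20 into an inhibitor of the anaphase-promoting complex (APC/C). Most of these genes are transcribed in late S phase, G2 and mitosis, often through a promoter element called the cell cycle genes homology region, which is bound by the MuvB complexes. In bulk RNA, fewer cells in G2 or mitosis and less RNA per cell cannot be told apart.

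The core letters of that element stood in front of genes that fell, genes that rose and genes that did not pass the test. The sequences below are the 100 bases before the RefSeq gene start (GRCh38.p14), 5′ to 3′ on the gene's strand. Capitals mark the core TTTGAA, its variant TTCGAA, or the CCAAT box, each on either strand. PLK1 and BUB1B fell, ZWINT and CDC25A rose, and CCNB2 and CDC20 did not pass.
PLK1 (chr16:23678789-23678888, plus strand): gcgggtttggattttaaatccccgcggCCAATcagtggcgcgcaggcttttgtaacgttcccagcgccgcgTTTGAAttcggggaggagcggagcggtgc
BUB1B (chr15:40160969-40161068, plus strand): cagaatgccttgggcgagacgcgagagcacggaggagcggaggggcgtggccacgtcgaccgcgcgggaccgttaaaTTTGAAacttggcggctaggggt
ZWINT (chr10:56361260-56361359, minus strand): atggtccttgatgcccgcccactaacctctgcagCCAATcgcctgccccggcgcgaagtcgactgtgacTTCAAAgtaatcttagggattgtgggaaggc
CDC25A (chr3:48188418-48188517, minus strand): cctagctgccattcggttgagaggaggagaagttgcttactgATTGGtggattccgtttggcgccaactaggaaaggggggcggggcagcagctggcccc
CCNB2 (chr15:59105046-59105145, plus strand): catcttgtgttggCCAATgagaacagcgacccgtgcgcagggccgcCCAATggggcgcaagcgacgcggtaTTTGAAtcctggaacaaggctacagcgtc
CDC20 (chr1:43358881-43358980, plus strand): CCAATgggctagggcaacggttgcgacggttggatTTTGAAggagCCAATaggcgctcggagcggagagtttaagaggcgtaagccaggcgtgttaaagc

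The core began 29 bases before the start in PLK1 and in CCNB2, 23 in BUB1B, 31 in ZWINT and 65 in CDC20, whereas the CDC25A stretch holds a CCAAT box without it. RefSeq windows from 250 bases before to 50 after the start were at hand for 40 of the 49 genes. TTTGAA or TTCGAA, on either strand, occurred in 28 of these 40 (70%), against 17.6% of 14425 array genes with a window. CCAAT occurred in 30 of 40 (75%), against 42.4%. Among genes with a window, TTTGAA or TTCGAA occurred in 6 of 10 that rose, 7 of 10 that fell and 15 of 19 that did not pass. In each of the 3 classes most genes with a window thus held these letters somewhere in it. A match of letters is a description and says nothing of binding.

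Of the 48 genes, 12 rose and 14 fell, and 22 did not pass the test. The 26 that passed are 54.2% of the genes, where 41.0% of all genes passed. The shares were 25.0% higher and 29.2% lower, against 22.0% and 19.0% of all genes. The median difference was 0.01, and that of all genes 0.02. By the mean of probe sets none of the 48 genes changed 2-fold, where 1.22% of all genes did so past the threshold. BUB3 passed 2-fold with the median of its probe sets (-1.04) and without its 1 probe set named _s_at, a suffix for shared probes (-1.09). Values of the groups did not overlap for 34 genes (70.8%), where 50.0% of all genes did not overlap.

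**Figure D1:**
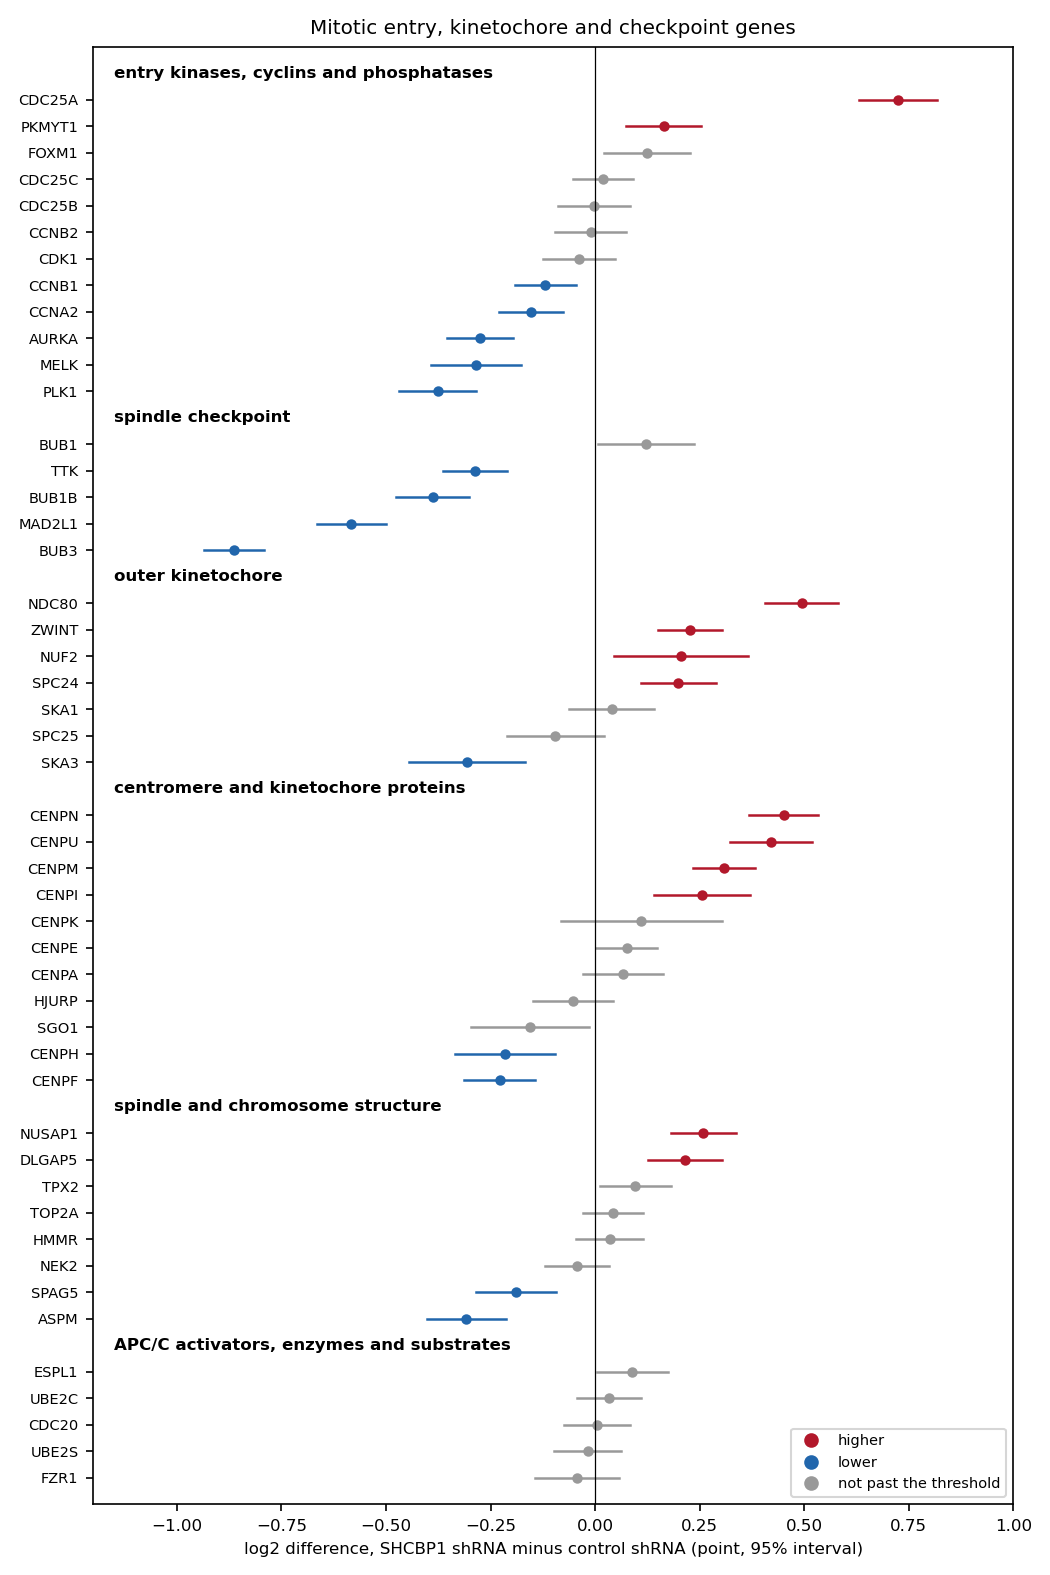
Log2 difference (SHCBP1 shRNA minus control shRNA, horizontal axis) of each tested gene with its 95% interval. Genes are grouped by role and ordered from the highest to the lowest difference within each role. Red genes were higher past the threshold, blue genes lower and grey genes not past it. The checkpoint genes lie mostly to the left, down to -0.86 for BUB3, most outer kinetochore genes lie to the right, and the APC/C activators and enzymes lie around 0.

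Among spindle checkpoint genes 4 of 5 fell (80.0%) and 0 rose, where 19.0% and 22.0% of all genes did. The median difference was -0.39. BUB3, a WD-repeat protein that brings BUB1 and BUBR1 to kinetochores, had -0.44, -0.44 and -0.45 in the SHCBP1 shRNA arrays, against 0.42, 0.40 and 0.44 in the control shRNA arrays. The arrays within each group nearly coincided, and the groups did not overlap. The difference of -0.86 ± 0.03 (SE), a 1.82-fold fall, was the largest of the 48 genes (limma, adjusted p = 1.40e-06). Its 3 probe sets all passed, with differences of -1.05, -1.12 and -0.42. The smallest belongs to the probe set named _s_at.

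MAD2L1 encodes MAD2, the protein that binds and holds CDC20. Its values were -0.32, -0.25 and -0.32 in the SHCBP1 shRNA arrays, against 0.28, 0.29 and 0.29 in the control shRNA arrays. All 3 SHCBP1 shRNA arrays were low. The difference was -0.58 ± 0.04 (SE, limma, adjusted p = 1.14e-05). Of its 4 probe sets, 3 fell by 0.76 to 0.83 on the log2 scale and 1 had a difference of 0.08, which did not pass.

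BUB1B encodes BUBR1, which joins MAD2 and BUB3 on CDC20. It had -0.16, -0.19 and -0.25 in the SHCBP1 shRNA arrays, against 0.19, 0.16 and 0.21 in the control shRNA arrays. The groups did not overlap, and the difference was -0.39 ± 0.04 (SE, limma, adjusted p = 0.000109). TTK, the MPS1 kinase that starts checkpoint signalling, fell by 0.29 ± 0.03 (SE) on the log2 scale, with 1 probe set, also named _s_at. BUB1, the kinase that docks the checkpoint proteins, had a difference of 0.12 ± 0.05 (SE) and did not pass (limma, adjusted p = 0.0876), although its groups did not overlap. It passed without SHCBP1 shRNA replicate 3 (0.16, adjusted p = 0.0484).

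Within the mitotic checkpoint complex, a grouping made after the values were seen, MAD2L1, BUB1B and BUB3 fell, while CDC20 had a difference of 0.00 with a 95% interval of -0.07 to 0.08. The CDC20 values were 0.00, -0.02 and 0.02 in the SHCBP1 shRNA arrays, against 0.01, -0.04 and 0.01 in the control shRNA arrays. They overlapped fully.

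**Figure D2:**
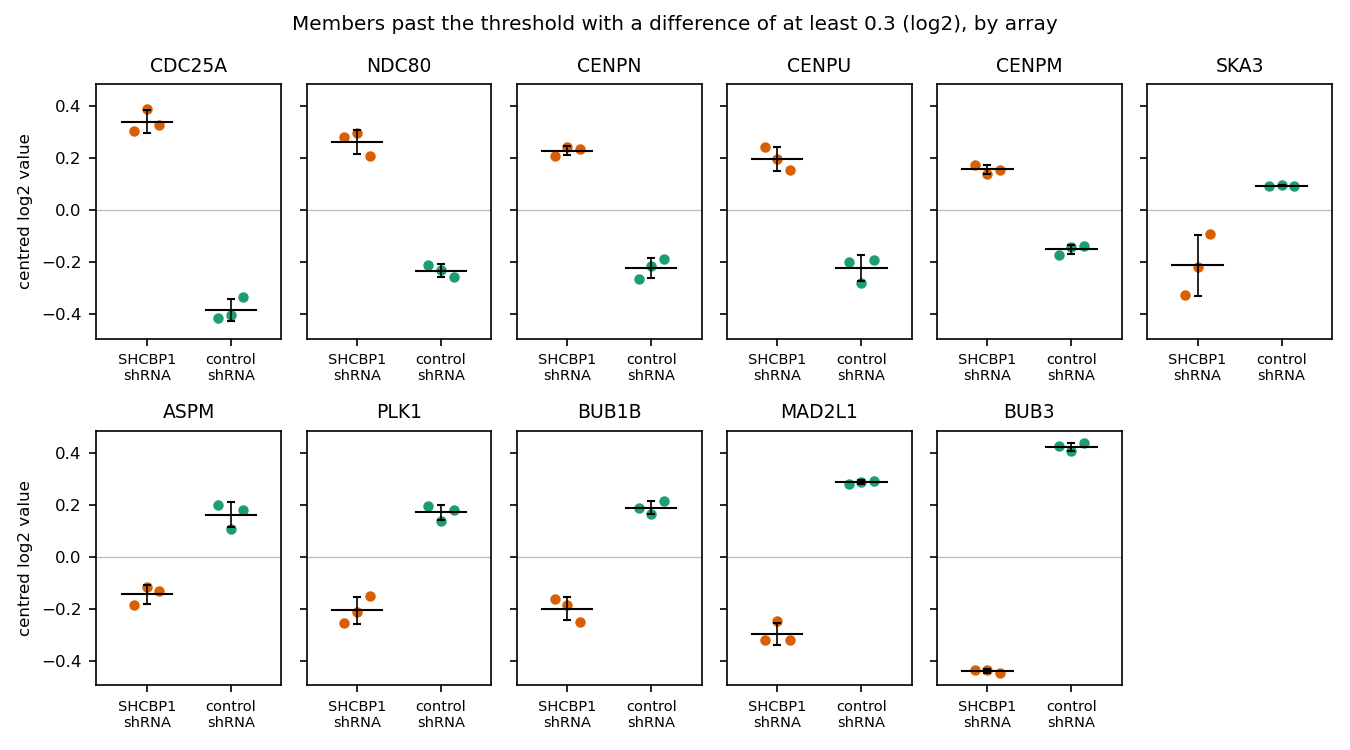
Centred log2 value of each array (points) with group mean and SD (bars, n = 3 arrays) for the 11 genes past the threshold with a difference of at least 0.3, SHCBP1 shRNA on the left and control shRNA on the right of each panel. In every panel the groups are separate. Among the SHCBP1 shRNA arrays BUB3 has the smallest SD (0.0074) and SKA3 the largest (0.12).

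In the outer kinetochore 4 of 7 genes rose (57.1%) and 1 fell (14.3%), where 22.0% and 19.0% of all genes did. The median difference was 0.20. NDC80, which encodes the microtubule-binding subunit HEC1, had 0.28, 0.29 and 0.21 in the SHCBP1 shRNA arrays, against -0.21, -0.23 and -0.26 in the control shRNA arrays. All SHCBP1 shRNA arrays were high, and the difference was 0.49 ± 0.04 (SE, limma, adjusted p = 3.22e-05). The value rests on 1 probe set. For a gene with 1 probe set the middle 2 of the 6 values mirror each other around 0, because the median was set to 0.

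The partners of NDC80 moved less. SPC24 rose by 0.20 ± 0.04 (SE), although 1 of its 5 probe sets passed on its own. NUF2 rose by 0.21 ± 0.07 (SE) and was close to the threshold (limma, adjusted p = 0.0462). It missed the threshold with the arrays centred on their medians (adjusted p = 0.0574) and after repeated quantile normalization (adjusted p = 0.0663). It also missed it without SHCBP1 shRNA replicate 2 or 3 (0.11 and 0.135) and without control shRNA replicate 1 or 3 (0.116 and 0.0729). SPC25 had a difference of -0.10 ± 0.05 (SE), which did not pass. In the NDC80 complex, a grouping made after the values were seen, 3 of 4 subunits were thus higher, where 22.0% of all genes were.

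ZWINT, which ties the checkpoint protein complex RZZ to the kinetochore, rose by 0.23 ± 0.03 (SE) with both of its probe sets. The SKA complex follows growing and shrinking microtubule ends, and its subunit SKA3 fell. SKA3 had -0.33, -0.22 and -0.09 in the SHCBP1 shRNA arrays, against 0.09, 0.10 and 0.09 in the control shRNA arrays. The SHCBP1 shRNA arrays were spread out and yet all lay below the controls (difference -0.31 ± 0.06, SE, limma, adjusted p = 0.00403). SKA1 had a difference of 0.04 ± 0.04 (SE), which did not pass.

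Among centromere and kinetochore proteins 4 of 11 rose (36.4%) and 2 fell (18.2%), where 22.0% and 19.0% of all genes did. The median difference was 0.08. CENPN, which recognises CENP-A nucleosomes, had 0.21, 0.24 and 0.24 in the SHCBP1 shRNA arrays, against -0.27, -0.22 and -0.19 in the control shRNA arrays. The groups were clearly apart, with a difference of 0.45 ± 0.04 (SE, limma, adjusted p = 3.92e-05). Its probe sets varied widely: 5 of 6 rose, by 0.18 to 0.83, and 1 had -0.25, which did not pass.

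CENPU, which docks PLK1 at the inner kinetochore, had 0.24, 0.20 and 0.15 in the SHCBP1 shRNA arrays, against -0.20, -0.28 and -0.19 in the control shRNA arrays. The difference was 0.42 ± 0.04 (SE, limma, adjusted p = 0.000126), and both probe sets rose. CENPM, a GTPase-like protein that binds CENPI, had 0.17, 0.14 and 0.16 in the SHCBP1 shRNA arrays, against -0.17, -0.14 and -0.14 in the control shRNA arrays. Neither gene showed overlap between the groups, and the CENPM difference was 0.31 ± 0.03 (SE, limma, adjusted p = 0.00016).

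The subunits that work with CENPM did not move together. CENPI rose by 0.25 ± 0.05 (SE), whereas CENPH fell by 0.21 ± 0.05 (SE). The 3 CENPI probe sets ran from 0.08 to 0.45, and 2 passed. CENPH rests on 1 probe set named _x_at, which marks probes that also match other sequences. CENPK had a difference of 0.11 ± 0.08 (SE) and the widest 95% interval of these genes, -0.08 to 0.30. Its control shRNA values were scattered, at -0.21, 0.10 and -0.20, and without control shRNA replicate 2 its difference was 0.21 and passed (limma, adjusted p = 0.00399).

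CENPF, a large protein of the outer kinetochore corona, fell by 0.23 ± 0.04 (SE). Of its 2 probe sets, 1 fell by 0.46 and the other had a difference of 0.00. CENPE, the kinesin of the corona, had 0.08, and the centromeric histone gene CENPA had 0.07. Its chaperone gene HJURP had -0.05 and SGO1, which shields centromeric cohesin, -0.16. These 4 genes did not pass the test. SGO1 passed without SHCBP1 shRNA replicate 2, at -0.21 (limma, adjusted p = 0.03).

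The entry kinases, cyclins and phosphatases gave 2 rises (16.7%) and 5 falls (41.7%) among 12 genes, with a median of -0.02. Among all genes 22.0% rose and 19.0% fell. CDC25A, a phosphatase that activates CDK2 and CDK1, had 0.31, 0.39 and 0.33 in the SHCBP1 shRNA arrays, against -0.41, -0.40 and -0.34 in the control shRNA arrays. The arrays of each group lay close together and far from the other group. The difference was 0.72 ± 0.04 (SE), a 1.65-fold rise and the largest of the 48 genes (limma, adjusted p = 7.77e-06), and its 3 probe sets rose by 0.52 to 0.86.

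The other CDC25 genes did not follow. CDC25B had a difference of 0.00 with a 95% interval of -0.09 to 0.08, and CDC25C had 0.02 with an interval of -0.05 to 0.09. PKMYT1, the membrane-bound kinase that inhibits CDK1, rose by 0.16 ± 0.04 (SE). PKMYT1 did not pass when probe sets ending in _s_at or _x_at were left out, an alternative in which its difference was 0.17 (limma, adjusted p = 0.0614).

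PLK1, the Polo-like kinase that acts from entry to cytokinesis, had -0.26, -0.21 and -0.15 in the SHCBP1 shRNA arrays, against 0.19, 0.14 and 0.18 in the control shRNA arrays. The groups did not overlap, and the difference was -0.38 ± 0.04 (SE, limma, adjusted p = 0.000174). All 3 probe sets fell, by 0.19 to 0.51 on the log2 scale. AURKA, the Aurora kinase of spindle poles that activates PLK1, fell by 0.28 ± 0.03 (SE), and the kinase gene MELK by 0.28 ± 0.05 (SE).

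The cyclins moved little. CCNA2 fell by 0.15 ± 0.03 (SE) and CCNB1 by 0.12 ± 0.03 (SE), the smallest change of the genes that passed. Of the 2 CCNA2 probe sets, 1 passed (-0.23) and the other had -0.07. CCNB1 missed the threshold without SHCBP1 shRNA replicate 2 or 3 or control shRNA replicate 1 (limma, adjusted p = 0.0511, 0.062 and 0.0567). CCNB2 had a difference of -0.01 with a 95% interval of -0.10 to 0.07, and CDK1 had -0.04 with an interval of -0.12 to 0.05. Of the 3 CDK1 probe sets, 1 passed on its own, at -0.16. FOXM1, a transcription factor for many of these genes, had 0.12 ± 0.04 (SE) and did not pass (limma, adjusted p = 0.0585), although 1 of its 3 probe sets was higher on its own, at 0.17.

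Among spindle and chromosome structure genes 2 of 8 rose (25.0%) and 2 fell (25.0%), where 22.0% and 19.0% of all genes did. The median difference was 0.04. ASPM, a protein of spindle poles, had -0.19, -0.12 and -0.13 in the SHCBP1 shRNA arrays, against 0.20, 0.11 and 0.18 in the control shRNA arrays. The groups did not overlap, with a difference of -0.31 ± 0.04 (SE, limma, adjusted p = 0.00053), and both probe sets fell. SPAG5 (astrin), which stabilises attachments, fell by 0.19 ± 0.04 (SE) with both probe sets.

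The microtubule bundler NUSAP1 rose by 0.26 ± 0.03 (SE) and DLGAP5 (HURP), which stabilises kinetochore fibres, by 0.21 ± 0.04 (SE). Every probe set of these 2 genes rose. The spindle assembly factor gene TPX2 had a difference of 0.10, the DNA topoisomerase gene TOP2A 0.04, HMMR 0.04 and the centrosomal kinase gene NEK2 -0.04. None of these 4 passed the test. The 3 probe sets of TOP2A ran from -0.09 to 0.17, of which the highest passed on its own.

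Of the APC/C activators, enzymes and substrates, 0 of 5 tested genes passed limma's test, where 41.0% of all genes did. Only ESPL1 among these 5 had an unadjusted limma p under 0.05. CDC20 and FZR1 encode the activators, UBE2C and UBE2S the ubiquitin-conjugating enzymes, and ESPL1 separase, which cuts cohesin. Their differences ran from -0.04 for FZR1 to 0.09 for ESPL1. Tested singly, 1 of the 3 FZR1 probe sets was lower (-0.22, limma, adjusted p = 0.0123), beside another at 0.15 that did not pass. Of the 2 ESPL1 probe sets, 1 was higher (0.16, limma, adjusted p = 0.0482). For UBE2C the 95% interval was -0.04 to 0.11, and for UBE2S -0.10 to 0.06.

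Over all 48 genes, the 22 that did not pass had differences between -0.16 and 0.12. Their 95% intervals lay inside -0.3 to 0.3 for 21 of them, with CENPK as the exception. Of the 22, 6 had an unadjusted p under 0.05 and 8 had groups that did not overlap. The matching shares of all genes that did not pass were not computed, so these counts only describe. Of the 26 that passed, 15 changed by less than 0.3, 7 higher and 8 lower. Over all genes, 3883 of the 7440 that passed changed by less than 0.3. At 0.3 or more 5 genes rose and 6 fell, where 9.70% of all genes rose and 9.92% fell by that much past the threshold.

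**Figure D3:**
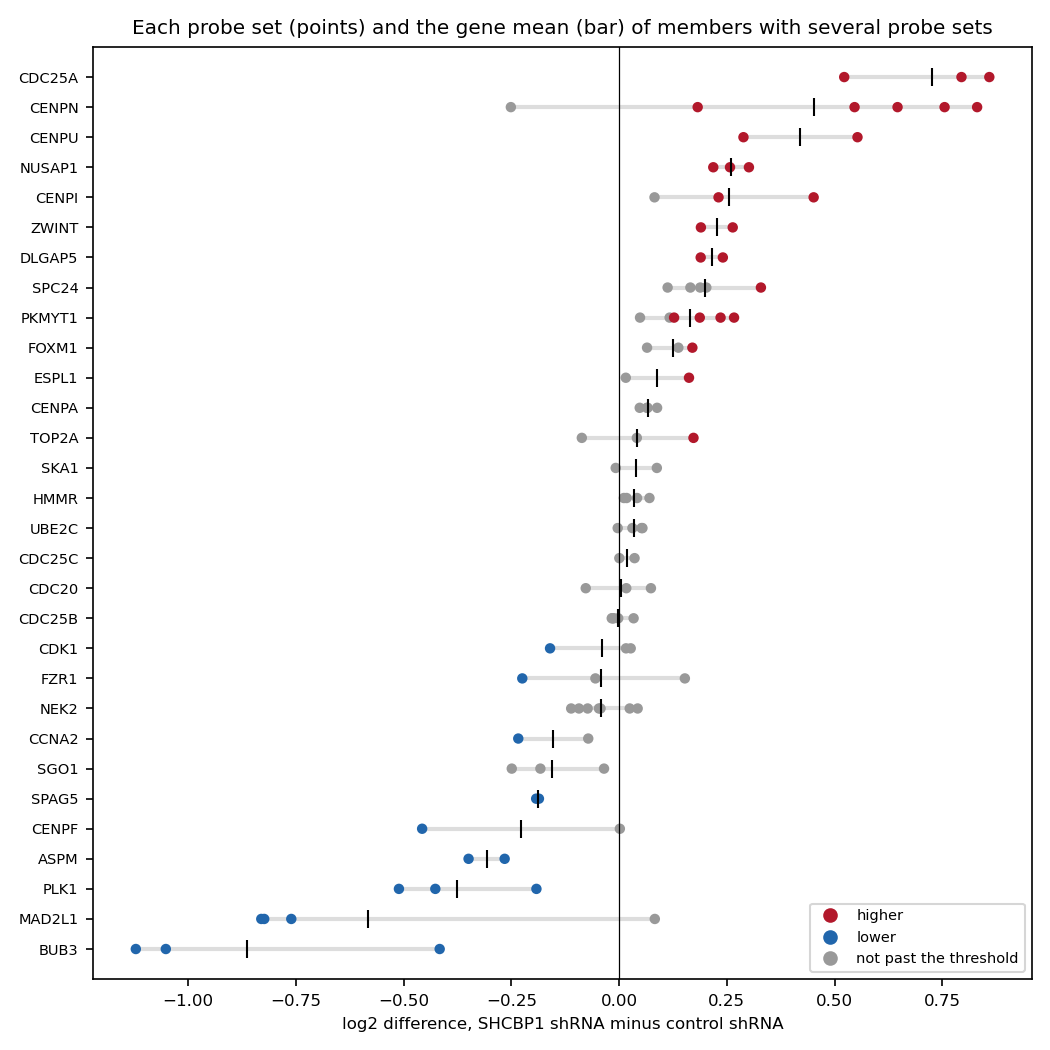
Log2 difference (SHCBP1 shRNA minus control shRNA) of every probe set (points) and the gene mean (black bar) for the 30 genes with several probe sets. Red points were higher past the threshold, blue lower and grey not past it. The probe sets of CENPN run from -0.25 to 0.83 and those of MAD2L1 from -0.83 to 0.08, while those of SPAG5 and NUSAP1 lie close together.

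Probe sets of a gene did not always give the same size of difference. Tested singly over all probe sets, 53 of the 116 passed (45.7%, against 38.4% of all probe sets with 1 symbol), 29 higher and 24 lower. Of the 30 genes with several probe sets, 0 had 1 probe set that rose and another that fell past the threshold, where 4.08% of all such genes did. The direction of each gene that passed was thus not contradicted by a probe set that passed on its own. The 16 genes that passed and had several probe sets include 9 in which every probe set passed. The matching share of all genes was not computed, so this count only describes. The other 10 that passed rest on 1 probe set each: CCNB1, MELK, AURKA, BUB1B, TTK, NDC80, NUF2, SKA3, CENPH and CENPM.

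Other genes of mitosis, 79 by name of which 78 were tested, gave 32 rises (41.0%) and 18 falls (23.1%). Among all genes 22.0% rose and 19.0% fell, and the shares of the lists below stand against these. The median difference of the 78 genes was 0.08. Kinetochore subunits outside the 49 genes gave 13 rises (61.9%) and 2 falls (9.52%) among 21. CENPL, the partner of CENPN, rose by 0.75 ± 0.04 (SE). OIP5, a subunit of the MIS18 complex that prepares CENP-A loading, rose by 0.58 ± 0.03 (SE) with 1 probe set. The histone-fold subunit CENPW rose by 0.57 ± 0.04 (SE), also with 1 probe set. The constitutive centromere-associated network was counted over both lists after the values were seen. Of its 15 subunits on these lists, 10 rose (66.7%) and 1, CENPH, fell (6.67%), with a median of 0.31.

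Checkpoint regulators and the chromosomal passenger complex gave 3 rises (42.9%) and 2 falls (28.6%) among 7. MAD1L1, which recruits MAD2 to kinetochores, fell by 0.76 ± 0.04 (SE) with all 3 of its probe sets. The borealin gene CDCA8 rose by 0.69 ± 0.04 (SE). MAD2L1BP, whose product helps to take MAD2 off CDC20, rose by 0.29 ± 0.04 (SE) with 1 probe set.

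APC/C subunits, with the inhibitor FBXO5, moved both ways, with 4 rises (26.7%) and 6 falls (40.0%) among 15. CDC16, which encodes a TPR subunit, fell by 0.80 ± 0.03 (SE), whereas ANAPC13 rose by 0.77 ± 0.03 (SE). CDC26, which binds CDC16, rose by 0.75 ± 0.04 (SE) with 1 probe set. The 6 probe sets of CDC16 ran from -1.31 to 0.40, with 5 lower and 1 higher past the threshold.

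Cohesin and condensin genes gave 3 rises (16.7%) and 6 falls (33.3%) among 18. The condensin I subunit gene NCAPD2 fell by 0.74 ± 0.04 (SE). The cohesin subunit gene STAG1 rose by 0.72 ± 0.04 (SE), and CDCA5 (sororin), which keeps sister chromatids joined, by 0.55 ± 0.04 (SE).

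Other entry regulators and CDK1 partners gave 4 rises (40.0%) and 2 falls (20.0%) among 10. WEE1, the nuclear kinase that inhibits CDK1, rose by 0.88 ± 0.04 (SE) with 1 probe set, more than any of the 48 genes. GTSE1, a microtubule-binding protein of G2 and mitosis, fell by 0.52 ± 0.04 (SE), and the cyclin F gene CCNF by 0.45 ± 0.04 (SE). MYBL2 and the MuvB core, listed with the E2F partner gene TFDP1, gave 5 rises (71.4%) and 0 falls among 7. The histone-binding subunit gene RBBP4 rose by 0.38 ± 0.03 (SE), LIN52 by 0.27 ± 0.04 (SE) and TFDP1 by 0.24 ± 0.03 (SE). Of the 2 RBBP4 probe sets, 1 had 0.68 and passed, and the other had 0.08.

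**Figure D4:**
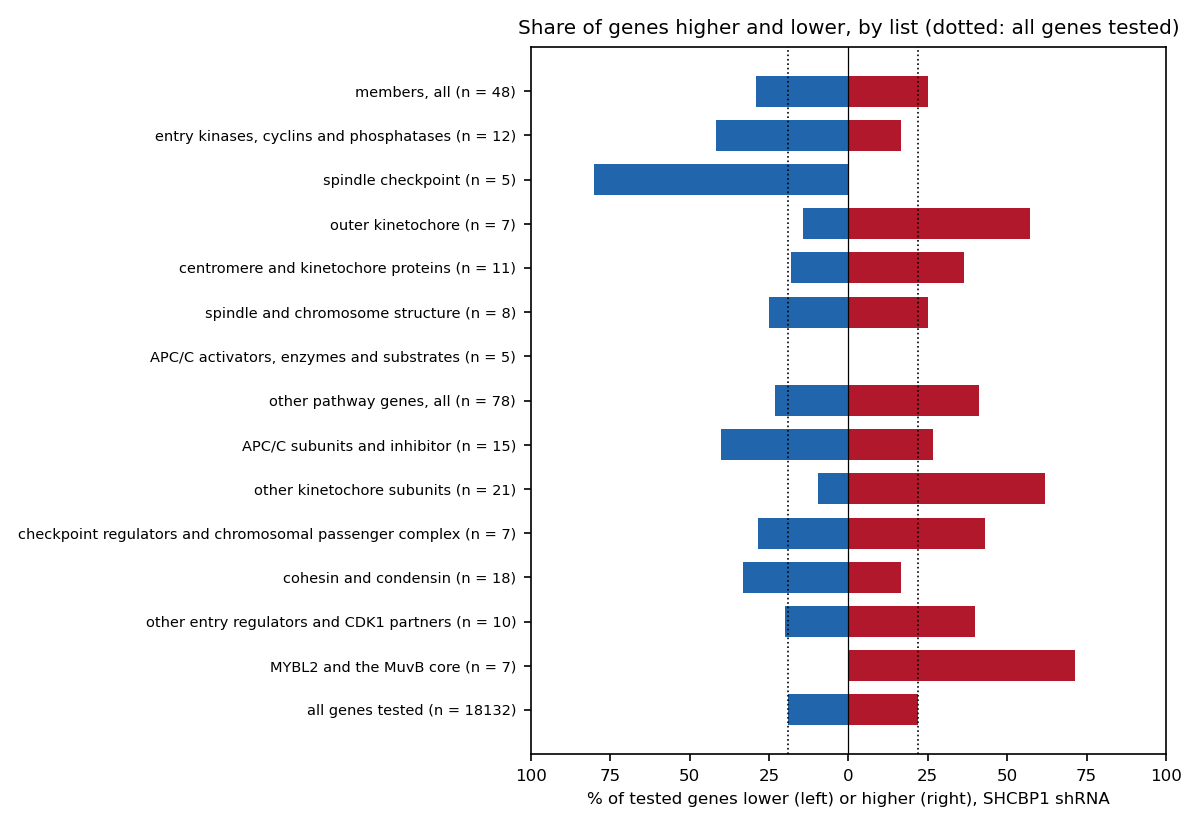
Share of tested genes past the threshold in each list, lower in the SHCBP1 shRNA arrays to the left (blue) and higher to the right (red), with the shares of all 18132 genes as dotted lines (19.0% lower, 22.0% higher). The spindle checkpoint list reaches 80.0% lower with 5 genes, and the other kinetochore subunits 61.9% higher with 21.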

How the data were processed

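RNA of 6 samples, 3 per group, was hybridised to Affymetrix arrays. The authors deposited log2 values from RMA, per the submitters' processing notes, with 1 value for each probe set on each array. RMA corrects the background, equalises the distributions of the arrays and summarises the probes. The log base was inferred from RMA. Each probe set was also centred on its median over the arrays. How that was done, and the software, is not given in the sources used here. The quantile step of RMA would remove a shift common to all transcripts.

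Of 49395 probe sets, 102 are Affymetrix controls and 44988 name 1 gene in the platform annotation. These single-gene probe sets were averaged into 18132 genes, with no filter on dim genes because centred values hold no brightness. The unpaired comparison used limma 3.58.1 (lmFit, eBayes) under R 4.3.3. Its p-values were adjusted over all genes by Benjamini-Hochberg and read at 0.05. The script was tested on simulated data.

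The members and lists were chosen with earlier results of these data known, so counts over them are descriptions. The text names SHCBP1, every member that passed (array values from a difference of 0.3), and up to 3 genes per list of other mitotic genes with the largest differences past the threshold. Members that did not pass, and groupings marked as such, were named after their values were seen. A search for protein motifs was planned and not run. Promoter windows come from RefSeq (GRCh38.p14), and letters were matched on both strands. The alternatives were a replicate block, repeated quantile normalization, centring of arrays, spike-in scaling, the median of probe sets, leaving out _s_at and _x_at probe sets, robust moderation, array weights, single probe sets and leaving out each array. Arrays of 1 group differed with an SD of 0.105 to 0.111 over genes, and arrays of different groups with 0.302 to 0.309, so no array repeated another. The 3 arrays per group limit the precision.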

Additional observations from a re-analysis of the deposited data

Results flagged for a closer look

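Both probe sets below name a member beside other genes, so the comparisons above do not use them, and each differed between the groups, the first higher and the second lower in the SHCBP1 shRNA arrays. The probe set that names PTTG1, the securin gene, together with its copy PTTG3P had 0.18, 0.17 and 0.13 in the SHCBP1 shRNA arrays, against -0.16, -0.18 and -0.13 in the control shRNA arrays. Its difference was 0.32 ± 0.04 (SE, limma, adjusted p over all probe sets = 0.00074), and which of these genes it reads cannot be told apart. The probe set that names AURKA, AURKAP1 and RAB3GAP2 had -0.12, -0.16 and -0.22 in the SHCBP1 shRNA arrays, against 0.12, 0.19 and 0.22 in the control shRNA arrays. Its difference was -0.35 ± 0.05 (SE, limma, adjusted p = 0.000893), beside -0.28 for the probe set that names AURKA alone.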

How the results depend on the processing

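The 12 rises and 14 falls kept their counts with the replicate number as a block (12 and 14, and 3783 and 3309 over all genes), with the median of probe sets, with robust moderation and with array weights. The replicate numbers did not pair the arrays: deviations from the group means correlated at 0.018, -0.046 and 0.067 for same-numbered arrays, and the block changed no call among the 48 genes. Leaving out 1 array gave 11 to 13 rises and 13 to 14 falls among the members, 31 to 34 and 16 to 18 among the other mitotic genes, and 3536 to 3699 and 3119 to 3232 over all genes. Of the 26 genes that passed, 24 kept their call in all 6 of these fits, with CCNB1 and NUF2 as the exceptions. Of the 22 that did not pass, SGO1 (lower), BUB1 and CENPK (higher) each passed in 1 of these fits. Spike-in scaling lowers every difference by 0.43 and gives 1 rise (CDC25A) and 43 falls among the members, 8 and 62 among the other mitotic genes, and 441 and 16268 over all genes. It turned 9 rises below 0: PKMYT1 (-0.27), NUF2 (-0.23), SPC24 (-0.23), ZWINT (-0.21), CENPI (-0.18), CENPM (-0.13), CENPU (-0.0132), NUSAP1 (-0.175) and DLGAP5 (-0.22). Those of CENPM and CENPU did not pass in that direction. Among the 26 genes that passed, single probe sets of opposite sign to the gene were seen for MAD2L1 (0.0828), CENPF (0.0017) and CENPN (-0.25), and none of these 3 passed. Without _s_at and _x_at probe sets 44 members could be tested, with 11 rises and 12 falls (3389 and 2926 over all genes). Among these 44, PKMYT1 was the 1 call lost. TTK and CENPH, which fell in the main comparison, have only such probe sets and could not be tested. The cause of these changes was not tested, other than the shift that spike-in scaling applies by construction. Centred values hold no signal over background, so a limit from dim probes could not be set.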
